A study of Mus musculus with 7 samples.

Results

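Accessibility at 10 genes of the hypoxia response and of glycolysis was examined in airway macrophages (AMs), the phagocytes that live in the airspaces. The genes were *Hif1a*, *Egln1*, *Egln3*, *Vegfa*, *Slc2a1*, *Slc16a3*, *Hk2*, *Pfkfb3*, *Ldha* and *Pdk1*. They were chosen by name, with earlier results of these data known, because plugging of airways with mucus makes low oxygen plausible. Every peak that the deposited table annotates to one of them was used. This gave 94 of 90376 peaks, and 10 of the 17797 genes with a peak. All 3 WT and 4 *Scnn1b*-Tg libraries came from the lungs of 6-week-old female C57BL/6 mice. WT mice were littermates without the transgene. *Scnn1b*-Tg mice overexpress *Scnn1b*, the β-subunit of the epithelial sodium channel, from the club cell secretory protein promoter, which is active in airway epithelium. The AMs carry the transgene in their genome as well, but the paper found no SCNN1B by staining in AMs of either genotype. AMs were sorted directly from the lung as CD45+ Siglec-F+ CD11c+ cells, with no culture or stimulation, and 50000 cells per library were used for ATACseq, which reads open chromatin from where a transposase can insert.

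Cells sense oxygen through hydroxylation of the α-subunits of hypoxia-inducible factor (HIF). With oxygen, prolyl hydroxylases mark HIF-α for binding by the von Hippel-Lindau protein and for degradation, and without it HIF-α pairs with ARNT and binds short DNA elements near its target genes. Many of these targets shift metabolism from mitochondrial respiration to glycolysis, and others bring in blood vessels. HIF-1α is also known for its part in the glycolytic activity of inflammatory macrophages, whereas resident AMs live in an oxygen-rich space. Accessibility is not expression, and the values below are read counts over peaks, normalized for library depth.

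The libraries held between 20971521 and 56121809 reads in peaks. WT replicate 3 and *Scnn1b*-Tg replicate 4 stood apart from the other 5 on the first principal component, which carried 43.6% of the variance. Both were the 2 highest or the 2 lowest libraries at 37% of all peaks and at 27 of the 94 peaks of these genes (28.7%). The labels name batches 1, 2 and 4 in both genotypes and batch 3 in *Scnn1b*-Tg mice only, without saying what a batch is, and no label ties the numbered columns of the table to a batch, so no value within a batch was computed. Of 12 AM markers, 11 had a peak within 1 kb of a start, *Siglecf*, *Marco* and *Pparg* among them, and 0 of 4 eosinophil markers had one. The summed AM marker values ranged from 16800 to 21954 in WT and from 16269 to 22952 in *Scnn1b*-Tg libraries. Those of 6 of 9 neutrophil markers, without *Ly6g*, *Mpo* and *Elane*, ranged from 3665 to 4989 and from 3710.4 to 4814. All 5 monocyte markers had such a peak, with sums of 2888 to 3043 and 2700.0 to 3122. For lung epithelium 4 of 7 had one, without *Sftpc*, *Sftpb* and *Krt5*, with sums of 1747 to 2368 and 1841 to 2462. The ranges of the genotypes overlapped in each of these lists with a value.

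No peak of the 10 genes passed the test for a difference between the genotypes. By limma on log2(normalized read count + 1), with Benjamini-Hochberg adjustment over all peaks, 0 of the 94 peaks passed an adjusted p of 0.05, beside 1 of all 90376 peaks (0.00111%), an *Igf2bp3* peak named here after its value was seen. The edgeR quasi-likelihood and likelihood-ratio tests and DESeq2, run on the whole reads recovered from the table, also called 0 of the 94. Over all 90376 peaks they called 0, 57 and 47, in that order, so the count over all peaks depends on the test. The paper, with DiffBind and edgeR, reports far more differing regions between these genotypes, most of them more accessible in *Scnn1b*-Tg AMs. Its regions had to pass an adjusted p of 0.05 and an absolute log2 fold change above 1. With both conditions the counts here were 1 in limma and 0, 56 and 41 in the 3 count tests. At an unadjusted p under 0.05, limma called 1 of the 94 (1.06%), a higher value in *Scnn1b*-Tg AMs, against 2.01% of all peaks (1.49% higher and 0.517% lower). Each of the 3 count tests called the same one, and their shares over all peaks at that p are not given here. All *Scnn1b*-Tg libraries lay above all WT libraries at 2 of the 94 (2.13%) and below at 0, and the genotypes did not overlap at 3.23% of all peaks (1.92% above and 1.31% below). By direction, 46 peaks were higher and 48 lower in *Scnn1b*-Tg AMs, so 48.9% were higher against 47.8% of all peaks. The median log2 fold change (*Scnn1b*-Tg minus WT) was -0.004, beside -0.008 over all peaks. The values ran from -0.57 to 0.56, and 90 of 94 lay within 0.5 of zero (95.7%, against 93.6% of all peaks). Of the 94 peaks, 89 had a mean of at least 20 normalized reads. In these bulk libraries, weaker accessibility per cell and fewer cells with open chromatin cannot be told apart. The labels do not say which library is which mouse, so p-values measure the spread between the libraries. That spread within a genotype on the log2 scale had a median SD of 0.26, beside 0.31 for all peaks.

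**Figure D1:**
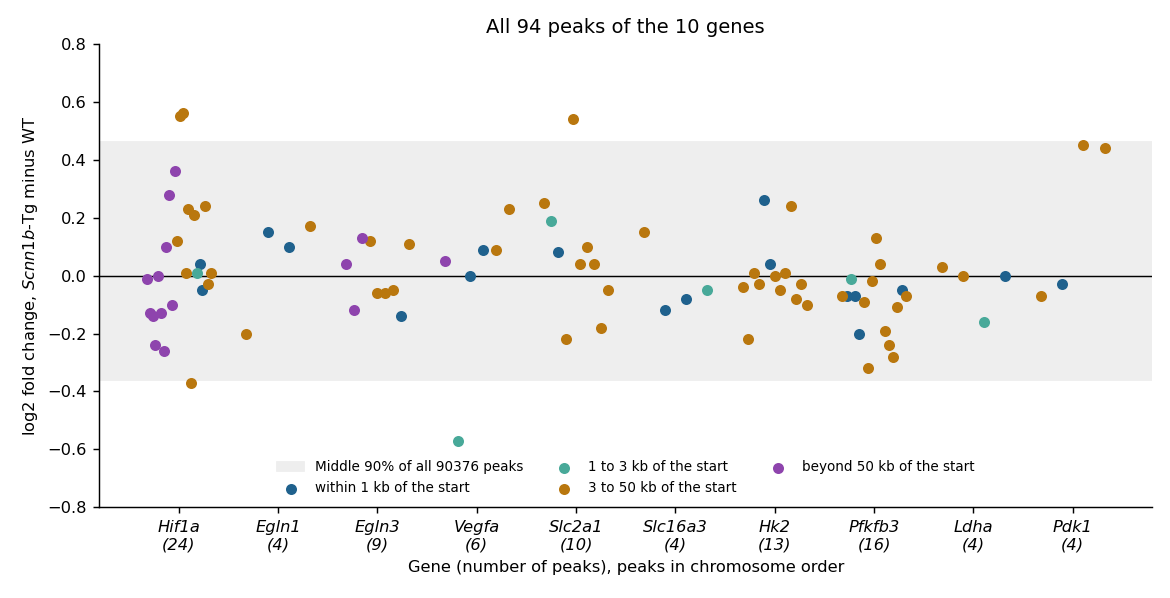
Log2 fold change (*Scnn1b*-Tg minus WT) of each of the 94 peaks, grouped by gene and coloured by distance from the annotated start. Grey marks the range from -0.36 to 0.46 that holds the middle 90% of all 90376 peaks. Most points lie in the grey band, with *Vegfa* reaching -0.57 and *Hif1a* 0.56, and 14 of the 16 *Pfkfb3* points lie below zero.

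The peaks were spread unevenly. *Hif1a* had 24, *Pfkfb3* 16, *Hk2* 13, *Slc2a1* 10, *Egln3* 9 and *Vegfa* 6, and the remaining genes 4 each. Of the 94, 18 lay within 1 kb of a transcription start, 6 at 1 to 3 kb, 55 at 3 to 50 kb and 15 beyond 50 kb. The table assigns a peak to the nearest start, and 21 of the 41 peaks in an intron or exon lay in another gene. At *Hif1a* this held for 15 peaks, 4 of them in *Prkch*, 9 in *Gm15283* and 2 in *Gm8075*, so the assignment of distal peaks is that of the table. The median log2 fold change was -0.015 for the 18 peaks within 1 kb and 0.004 for the 55 at 3 to 50 kb.

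Every start peak and every other peak named below had an adjusted p of 1 in limma, and 0 of the 10 start peaks had an unadjusted p under 0.05. For each gene, the start peak was the peak nearest an annotated start, and the one with the higher mean where several touched one. On a per-length scale, as normalized reads per kb of peak over all 7 libraries, the *Hk2* start peak was the most accessible (1677 ± 250, SD, n = 7). *Pfkfb3* (1209 ± 231), *Hif1a* (1198 ± 246), *Pdk1* (992 ± 186), *Slc16a3* (972 ± 135) and *Slc2a1* (951 ± 114) followed, each overlapping its neighbours in the order across libraries. *Ldha* (672 ± 82.5) lay below *Slc2a1* and above *Vegfa* (387 ± 40.3) without overlap. The prolyl hydroxylase genes *Egln3* (266 ± 48.9) and *Egln1* (244 ± 27.6) came last, with overlapping ranges. Against all peaks within 1 kb of a start, the *Hk2* start peak stood at percentile 93.9 and that of *Egln1* at 32.5.

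The DNA at these starts is shown because it carries the letters that HIF binds. The core of a hypoxia response element is written ACGTG or GCGTG. It was searched on both strands in the 250 bases before the RefSeq start inside each start peak (RefSeq on GRCm38.p6, the build called mm10 in the files). One or both forms occurred in 9 of the 10 genes, *Vegfa* being the exception, and in 56.6% of the 14306 RefSeq promoters whose start lay in a peak (38.6% of all 32851). CACGTG, which holds ACGTG on both strands and is also the E-box that other factors bind, occurred in 3 of the 10 (*Hif1a*, *Ldha* and *Pfkfb3*), against 8.55% of the promoters in a peak. The last 150 bases before the start follow for the 8 genes with a match there, 5′ to 3′ on the strand of the gene, without bases of annotated exons other than those of a match that crosses into one. Capitals mark each match on either strand that falls in the shown stretch.
Hif1a (chr12:73907717-73907866, plus strand): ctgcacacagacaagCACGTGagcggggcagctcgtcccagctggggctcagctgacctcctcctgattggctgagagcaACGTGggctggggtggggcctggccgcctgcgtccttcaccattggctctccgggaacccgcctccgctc
Ldha (chr7:46845654-46845803, plus strand): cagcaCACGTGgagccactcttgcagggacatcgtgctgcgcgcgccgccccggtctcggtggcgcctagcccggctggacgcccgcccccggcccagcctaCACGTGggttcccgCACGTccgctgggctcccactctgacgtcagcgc
Slc2a1 (chr4:119108595-119108713, plus strand): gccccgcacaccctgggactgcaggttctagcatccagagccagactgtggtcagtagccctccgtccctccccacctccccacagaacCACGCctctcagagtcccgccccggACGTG
Slc16a3 (chr11:120948917-120949052, plus strand): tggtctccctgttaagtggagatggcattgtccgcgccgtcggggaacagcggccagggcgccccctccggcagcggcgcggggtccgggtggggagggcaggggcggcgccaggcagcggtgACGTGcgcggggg
Hk2 (chr6:82774455-82774604, minus strand): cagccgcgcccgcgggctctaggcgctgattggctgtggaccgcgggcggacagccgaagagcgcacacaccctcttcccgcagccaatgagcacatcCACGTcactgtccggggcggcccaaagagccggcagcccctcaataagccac
Pfkfb3 (chr2:11502102-11502240, minus strand): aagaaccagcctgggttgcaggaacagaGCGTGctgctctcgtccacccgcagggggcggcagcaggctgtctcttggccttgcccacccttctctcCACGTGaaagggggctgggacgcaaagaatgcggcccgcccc
Egln1 (chr8:124949325-124949404, minus strand): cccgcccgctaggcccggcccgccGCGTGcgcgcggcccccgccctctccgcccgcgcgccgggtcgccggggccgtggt
Pdk1 (chr2:71873074-71873223, plus strand): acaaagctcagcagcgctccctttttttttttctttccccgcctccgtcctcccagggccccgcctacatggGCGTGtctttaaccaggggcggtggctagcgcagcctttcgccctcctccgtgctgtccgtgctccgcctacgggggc
The *Ldha* sequence holds CACGTG 2 times, starting at positions -145 and -48 counted from the start, and a further CACGT at -34. In *Hif1a* CACGTG starts at -135 and ACGTG at -70. The single *Egln3* match, ACGTG at -229, lies outside the stretch of that length. Those of *Egln1* at -68 and of *Slc16a3* at -14 lie past the shown stretches, which stop at an annotated exon. These matches are letters in the reference genome, and binding was not measured.

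Across all peaks, the central 300 bases held ACGTG or GCGTG in 34.5% of 90376 and in 42 of the 94 (44.7%). Within 1 kb of a start the shares were close, at 52.6% of 19800 and 10 of 18 (55.6%), and CACGTG was found in 6.95% and in 1 (5.56%). Beyond 1 kb of a start the shares were 29.5% of 70576 and 32 of 76 (42.1%), and CACGTG was found in 5.32% and in 9 (11.8%). *Pfkfb3* held 5 of the 10 peaks with CACGTG.

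*Hif1a* encodes the oxygen-regulated α-subunit of HIF-1. Its start peak measured 1424, 1671 and 2309 normalized reads in WT and 1417, 1725, 1548 and 2201 in *Scnn1b*-Tg libraries. The highest value of each genotype came from the library that stood apart, and the genotypes overlapped (log2 fold change -0.05, SE 0.19, limma adjusted p = 1). The sum over its 24 peaks was 8411 ± 504 (SD, n = 3) in WT and 8336 ± 408 (n = 4) in *Scnn1b*-Tg AMs, and the 95% interval of the fold ran from 0.89 to 1.11. The most accessible *Hif1a* peak per kb was not the start but an intergenic peak 121.1 kb upstream, at percentile 99.5 of all peaks, with a log2 fold change of 0.00 after rounding. A pair of weak peaks in *Gm15283* gave the largest positive log2 fold changes of the 94. The peak 26.1 kb upstream (chr12:73875066-73875288) held 11.9, 11.9 and 13.7 normalized reads in WT and 18.3, 19.9, 17.4 and 19.7 in *Scnn1b*-Tg libraries. It was the second of the 2 peaks without overlap, which is why it is named. Its log2 fold change was 0.56 (SE 0.35, unadjusted p = 0.137 and adjusted p = 1 in limma). The unadjusted exact permutation p was 0.0286, the smallest that 3 against 4 libraries can give. A peak chosen for lack of overlap gets a permutation p at or near that floor, so this p is no support for a difference. The peak 27.2 kb upstream (chr12:73873583-73874133) held 37.4, 46.2 and 27.4 in WT, against 63.3, 31.7, 61.7 and 65.1 in *Scnn1b*-Tg libraries. There *Scnn1b*-Tg replicate 2 lay among the WT values, and the log2 fold change was 0.55 (SE 0.31, adjusted p = 1, limma).

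*Egln1* and *Egln3* encode the prolyl hydroxylases PHD2 and PHD3, which use oxygen to mark HIF-α for degradation, and both are themselves HIF targets. The *Egln1* start peak measured 244, 298 and 330.0 in WT, against 273, 344, 315 and 305 in *Scnn1b*-Tg libraries, with overlap (log2 fold change 0.10, SE 0.17). The *Egln3* start peak measured 390.3, 587 and 565 in WT, against 347, 493, 484 and 540.4 in *Scnn1b*-Tg libraries. Its log2 fold change of -0.14 (SE 0.20) was the lowest of the 10 start peaks. The peak in intron 1 of *Egln3*, 11.3 kb into the gene, was more accessible per kb than the *Egln3* start peak, at 514 against 266 normalized reads per kb, and its log2 fold change was -0.05. All 9 *Egln3* peaks lay between -0.14 and 0.13 and all 4 *Egln1* peaks between -0.20 and 0.17.

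*Vegfa* encodes the vascular growth factor VEGF-A, a classic HIF target. Its start peak measured 367, 455 and 484 in WT, against 421, 439.7, 490.3 and 502 in *Scnn1b*-Tg libraries (log2 fold change 0.09, SE 0.16), again with overlap. A weak peak 2.8 kb from the start (chr17:46027637-46027901) gave the lowest log2 fold change of all 94, with 29.8, 32.0 and 51.4 in WT, against 17.0, 21.8, 19 and 49.1 in *Scnn1b*-Tg libraries. The highest value of each genotype was that of the library that stood apart, and the log2 fold change was -0.57 (SE 0.39, adjusted p = 1, limma, exact permutation p = 0.257). Without *Scnn1b*-Tg replicate 4 it was -0.90, not past adjustment. The sum over the 6 *Vegfa* peaks was 798 ± 138 in WT (n = 3) and 823 ± 84.0 in *Scnn1b*-Tg AMs (n = 4).

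**Figure D2:**
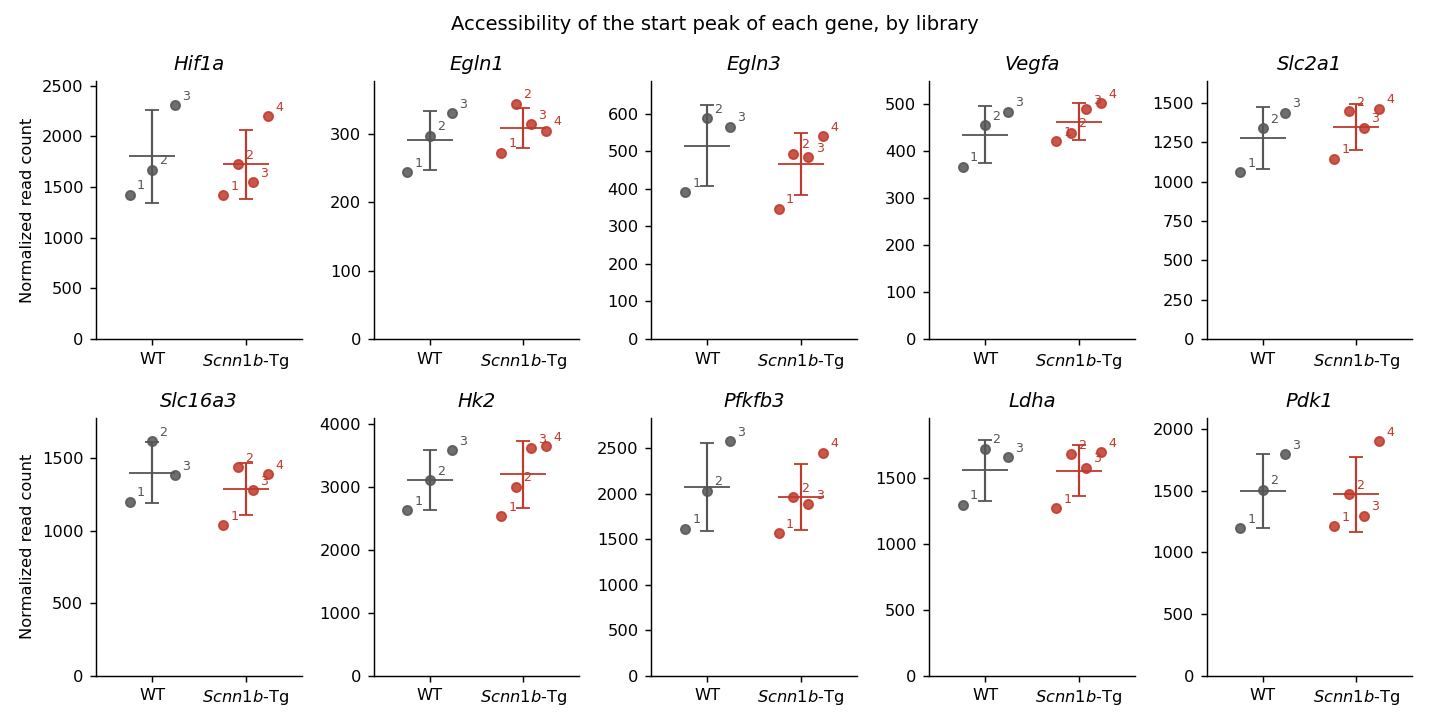
Normalized read count of the start peak of each gene in each library, numbered by replicate, with the mean (horizontal bar) and SD (error bars) of the 3 WT and 4 *Scnn1b*-Tg libraries. The genotypes overlap in all 10 panels, and replicate 1 is the lowest library of its genotype in every panel.

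*Slc2a1* encodes GLUT1, the glucose transporter by which activated macrophages take up sugar. Its start peak measured 1059.6, 1339 and 1438 in WT, against 1147, 1447, 1344 and 1465 in *Scnn1b*-Tg libraries (log2 fold change 0.08, SE 0.15). The only peak of the 10 genes at an unadjusted p under 0.05 lay in intron 1 of *Slc2a1*, 9.7 kb downstream of the start (chr4:119118602-119119266). It measured 78.2, 73.5 and 84.5 in WT, against 102, 94.3, 128 and 139 in *Scnn1b*-Tg libraries. All 4 *Scnn1b*-Tg values exceeded all 3 WT values, and the means were 78.8 ± 5.51 and 116 ± 21 (SD). The log2 fold change was 0.54 (SE 0.21), with a 95% interval of the fold from 1.06 to 1.99 and an adjusted p of 1 in limma. Unadjusted, limma gave p = 0.0253 and the two-sided exact permutation test p = 0.0571. Over 20 alternative fits the log2 fold change stayed between 0.44 and 0.63, the unadjusted p between 0.00888 and 0.0781, and the smallest adjusted p was 0.705. Its central 300 bases are shown because this is the peak with the smallest p. They hold no ACGTG or GCGTG on either strand, nor does the whole peak, and hence no capitals.
Slc2a1 intron 1 (chr4:119118784-119119083, plus strand): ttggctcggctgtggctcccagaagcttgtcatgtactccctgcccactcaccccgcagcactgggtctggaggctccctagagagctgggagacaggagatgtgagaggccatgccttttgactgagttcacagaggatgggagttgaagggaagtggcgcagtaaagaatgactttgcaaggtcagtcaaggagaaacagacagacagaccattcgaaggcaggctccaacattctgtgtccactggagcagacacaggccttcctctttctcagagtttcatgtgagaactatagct
Per kb this peak was modest, at 150.3 normalized reads and percentile 45.1 of all peaks. The strongest *Slc2a1* peak per kb, in intron 2 and 16.4 kb into the gene, reached 2236 and percentile 99.1, with a log2 fold change of 0.10. Of the 10 *Slc2a1* peaks, 7 were higher and 3 lower in *Scnn1b*-Tg AMs, and the sum over all of them was 5546 ± 788 in WT (n = 3) and 5829 ± 561 in *Scnn1b*-Tg AMs (n = 4), with a 95% interval of the fold from 0.89 to 1.24.

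**Figure D3:**
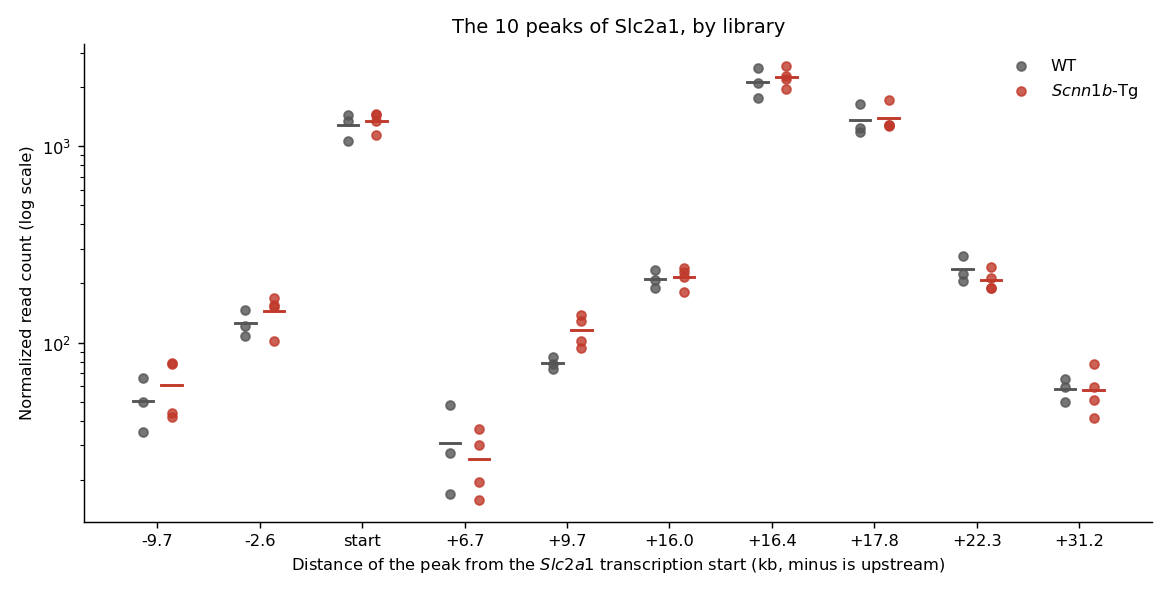
Normalized read count (log scale) of the 10 *Slc2a1* peaks in each library, ordered by distance from the transcription start, with short bars for the means. At 9.7 kb downstream the 4 *Scnn1b*-Tg points (94.3 to 139) lie above the 3 WT points (73.5 to 84.5), and at the other 9 positions the genotypes overlap.

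*Slc16a3* encodes MCT4, which exports the lactate that glycolysis makes. Its start peak measured 1199.9, 1619.9 and 1385 in WT, against 1041, 1441, 1281 and 1390.3 in *Scnn1b*-Tg libraries. It had the smallest p of the 4 *Slc16a3* peaks (log2 fold change -0.12, SE 0.16), and the other 3 had log2 fold changes from -0.08 to 0.15. The sum over the 4 peaks was 3783 ± 388 in WT (n = 3) and 3595 ± 377 in *Scnn1b*-Tg AMs (n = 4), and the 95% interval of the fold ran from 0.81 to 1.12.

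*Hk2* encodes hexokinase 2, which traps glucose in the cell as glucose-6-phosphate. Its start peak, the strongest of the 10, measured 2636, 3115 and 3593 in WT, against 2537, 3011, 3623 and 3653 in *Scnn1b*-Tg libraries (log2 fold change 0.04, SE 0.15). The sum over 13 *Hk2* peaks was 9574 ± 795 (n = 3) and 9465 ± 196 (n = 4), with a 95% interval of the fold from 0.89 to 1.11. The 13 log2 fold changes ran from -0.22 to 0.26. *Ldha* encodes the lactate dehydrogenase subunit that reduces pyruvate to lactate. The *Ldha* start peak measured 1298, 1723 and 1658 in WT, against 1274, 1681, 1579.9 and 1696 in *Scnn1b*-Tg libraries, means of 1559.6 ± 229 and 1558 ± 196 (log2 fold change 0.0002). The interval of the fold nonetheless ran from 0.80 to 1.25.

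*Pdk1* encodes the kinase that inactivates pyruvate dehydrogenase and so keeps pyruvate from entering the citric acid cycle. The *Pdk1* start peak measured 1194, 1507 and 1794 in WT, against 1212, 1472, 1297 and 1899 in *Scnn1b*-Tg libraries (log2 fold change -0.03, SE 0.18). A weak peak over exon 9 (chr2:71895584-71896352) held 55.3, 51.0 and 52.5 in WT, against 51.1, 77.1, 77.5 and 92.1 in *Scnn1b*-Tg libraries. In it 3 of 4 *Scnn1b*-Tg values exceeded every WT value, and the log2 fold change was 0.45 (SE 0.24, adjusted p = 1 in limma, exact permutation p = 0.114).

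*Pfkfb3* encodes the bifunctional enzyme that makes fructose-2,6-bisphosphate, the strong activator of phosphofructokinase. At the start peak the libraries measured 1617, 2031 and 2573 in WT, against 1562, 1957, 1882 and 2447 in *Scnn1b*-Tg libraries (log2 fold change -0.07, SE 0.18). Of the genes with more than 4 peaks *Pfkfb3* was the most one-sided, with 14 of 16 lower in *Scnn1b*-Tg AMs and a median log2 fold change of -0.073. None passed, the smallest p being 0.178 (log2 fold change -0.28, intron 1, limma, adjusted p = 1). The sum over all 16 was 13289 ± 663 in WT (n = 3) and 12689 ± 353 in *Scnn1b*-Tg AMs (n = 4), and the interval of the fold from 0.87 to 1.05 included 1. Among the other PFKFB genes and *Tigar*, 15 of 19 peaks were lower and 21.1% higher, against 47.8% of all peaks, with a median of -0.053. Most of the 19 lay at 1 gene, *Pfkfb4*, where 2 of 13 were higher. The only *Pfkfb1* peak was higher, as were 0 of 2 at *Pfkfb2* and 1 of 3 at *Tigar*. In this list 0 peaks passed an adjusted p of 0.05 and 0 an unadjusted one. Neighbouring peaks share libraries and are not replicates, so no test was made of these counts.

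**Figure D4:**
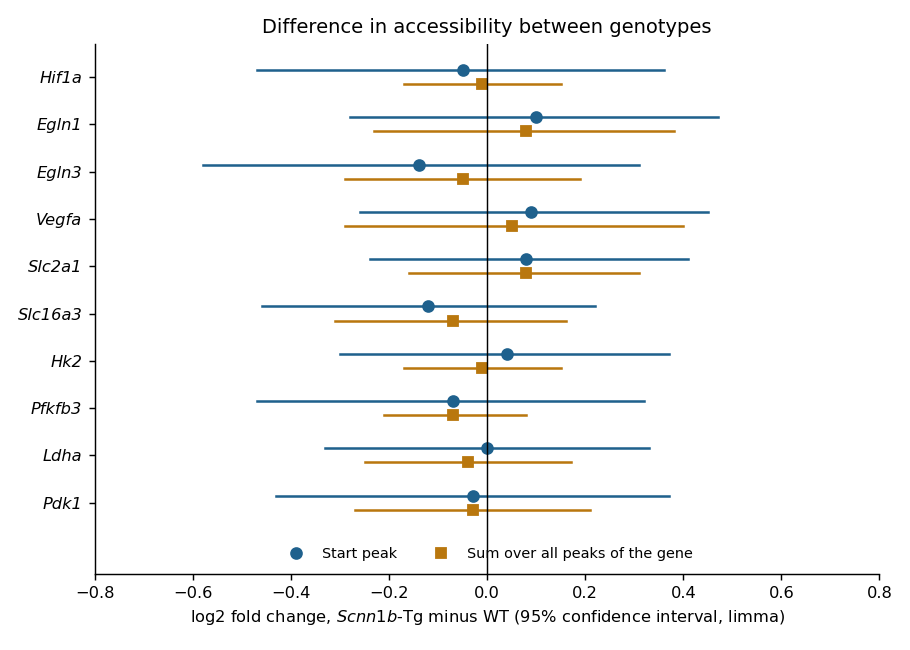
Log2 fold change (*Scnn1b*-Tg minus WT) with its 95% confidence interval from limma for the start peak (circles) and for the sum over all peaks (squares) of each gene. All 20 intervals include zero. Those of the start peaks reach fold values of 0.67 for *Egln3* and 1.39 for *Egln1* at the extremes.

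Per gene, none of the 10 sums over all peaks passed, with p from 0.324 to 0.866 in limma. The sums of 0 of 17797 genes passed an adjusted p of 0.05 and 204 an unadjusted one (1.15%). For sums over the peaks within 1 kb of a start the counts were 0 and 53 of 13629 (0.389%). The 95% intervals of the fold for the 10 sums differed between genes, the lowest bound being 0.81 (*Slc16a3*) and the highest 1.32 (*Vegfa*). That of *Pfkfb3* ran from 0.87 to 1.05, and that of *Egln1* from 0.86 to 1.30.

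The start peaks shared an order of the libraries. *Scnn1b*-Tg replicate 1 and WT replicate 1 were each the lowest of their genotype at all 10 start peaks, and at 60.1% of the 14544 peaks that overlap a start. Beyond 1 kb this held at 6 of the 76 peaks of these genes (7.9%) and at 11.6% of all 70576 such peaks. The same libraries had the lowest shares of signal in peaks that overlap a start, 38.6% in WT replicate 1 and 38.4% in *Scnn1b*-Tg replicate 1. The other libraries had 42.3% to 47.3%, with the highest in WT replicate 3 (47.3%) and *Scnn1b*-Tg replicate 4 (46.6%). The part of this share in the start-peak values was not tested.

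Among other genes of oxygen sensing, the peaks with low p all had higher values in *Scnn1b*-Tg AMs. The list held 11 genes for HIF subunits, hydroxylases and the ubiquitin ligase that degrades HIF-α, with 66 peaks. Of these 0 passed an adjusted p of 0.05 in limma, 13 had an unadjusted p under 0.05 (19.7%, against 2.01% of all peaks), all 13 higher, and 43 of 66 were higher (65.2%). The 13 belonged to *Arnt2* (7 of 20 peaks), *Epas1* (5 of 15) and *Arnt* (1 of 5), and *Arnt2* and *Arnt* are named here after their values were seen. Without WT replicate 1 the 13 fell to 8, and leaving out each of the other libraries gave 9 to 14, all higher. Without both libraries that stood apart it was 12 higher and 1 lower. The 2.01% of all peaks is from the fit of all libraries, and the shares with libraries left out are not given here. In the fit of all libraries *Vhl*, *Egln2*, *Hif1an*, *Cul2*, *Rbx1*, *Elob*, *Eloc* and *Hif3a* had none. The lists were described by counts with no set test, and peaks of one gene are not independent.

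*Epas1* encodes HIF-2α, the second oxygen-regulated α-subunit. All 15 of its peaks were higher in *Scnn1b*-Tg AMs, with a median log2 fold change of 0.480, where *Hif1a* had 13 of 24 and a median of 0.006. Without WT replicate 3, 12 of the 15 were higher, and leaving out each of the other libraries gave 13 to 15. The count at an unadjusted p under 0.05 was 3 without WT replicate 3 and 8 with 1 surrogate variable, against 5. The share of all peaks at that p in those fits is not given here and may differ from that of the main fit. The *Epas1* peak with the smallest p lay in intron 1, 34.0 kb into the gene (chr17:86787747-86788766). It held 67.2, 61.7 and 45.7 in WT, against 161, 167, 149 and 84.1 in *Scnn1b*-Tg libraries. No value overlapped, *Scnn1b*-Tg replicate 4 was the lowest of its genotype and WT replicate 3 of WT, and the means were 58.2 ± 11.2 and 140.1 ± 38.0. The log2 fold change was 1.22 (SE 0.27), with an unadjusted limma p = 0.000732, an exact permutation p = 0.0571 and an adjusted p of 1 in limma, 0.059 in the edgeR likelihood-ratio test and 0.0527 in DESeq2. With 1 surrogate variable in the limma model the adjusted p was 0.00957, the only one of 20 alternative fits in which an *Epas1* peak passed. The sum over the 15 peaks was 3446 ± 486 in WT (n = 3) and 4364 ± 545 in *Scnn1b*-Tg AMs (n = 4), a log2 fold change of 0.34 (SE 0.12, adjusted p = 1, limma). The start peak of *Epas1*, its strongest, measured 1145, 1629 and 1733 in WT, against 1426, 1924, 1645 and 1779 in *Scnn1b*-Tg libraries, with overlap and a log2 fold change of 0.19.

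*Arnt2* encodes a partner of HIF-α best known from neurons. Of its 20 peaks 17 were higher in *Scnn1b*-Tg AMs, with a median of 0.246. Of its 7 peaks with an unadjusted p under 0.05, 4 lay in intron 1. The smallest p belonged to an intron 1 peak with 13.6, 23.7 and 22.8 in WT, against 71.8, 34.5, 45.9 and 43.0 in *Scnn1b*-Tg libraries (log2 fold change 1.23, SE 0.33, adjusted p = 1, limma). The groups did not overlap at this peak. The largest log2 fold change of the 7, 2.09 (SE 0.67), was at a peak 0.2 kb from a start. That peak held 11.9, 1.19 and 2.28 in WT, against 25.6, 18.1, 26.9 and 8.6 in *Scnn1b*-Tg libraries, with overlap. In WT replicates 2 and 3, 1 read was worth 1.19 and 1.14, so their values there are near the floor. Without WT replicate 1, or without *Scnn1b*-Tg replicate 3, 4 of the 20 *Arnt2* peaks had an unadjusted p under 0.05. The share of all peaks at that p in those fits is not given here. Among the stronger *Arnt2* peaks, those in intron 17 had log2 fold changes of 0.05 (95% interval -0.45 to 0.55) and 0.22 (-0.87 to 1.30). Those in the 3′ UTR had -0.07 and 0.15, and the one 2.9 kb from a start had -0.14, each with overlap. The sum over all 20 was 3667 ± 850.1 in WT (n = 3) and 3931 ± 758 in *Scnn1b*-Tg AMs (n = 4), a log2 fold change of 0.11 (SE 0.19). A peak in or near a gene was not tied to its expression here.

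**Figure D5:**
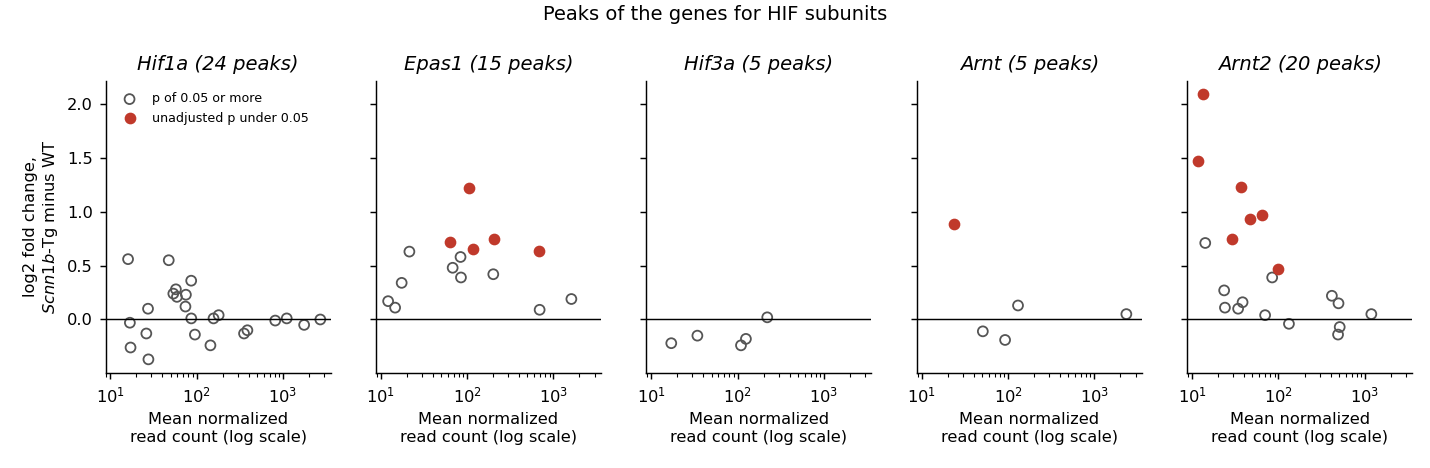
Log2 fold change (*Scnn1b*-Tg minus WT) against the mean normalized read count (log scale) for every peak of the genes for HIF subunits, with filled points for peaks at an unadjusted p under 0.05 in limma. *Hif1a* (24 peaks) has no filled point, *Epas1* has 5 of 15, *Arnt* 1 of 5 and *Arnt2* 7 of 20, and none passes adjustment.

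In the other lists no peak passed an adjusted p of 0.05 in limma, and the counts at an unadjusted p under 0.05 are set against 2.01% of all peaks and those of higher peaks against 47.8%. Of 77 peaks of 16 further glycolytic enzymes, 0 had an unadjusted p under 0.05 (0%) and 44.2% were higher, the smallest p being that of a *Pfkp* peak (0.0957). Of 63 peaks of other glucose and lactate transporters, 1 had an unadjusted p under 0.05 (1.59%, at *Slc16a7*, log2 fold change 0.96, SE 0.41) and 41.3% were higher. Of 41 peaks of the other genes of the pyruvate dehydrogenase switch, 48.8% were higher and 1 had an unadjusted p under 0.05 (2.44%), 2.3 kb from the start of *Pdk4*, a further kinase of that complex. The *Pdk4* peak held 50.2, 62.9 and 50.2 in WT, against 76.7, 98.8, 80.7 and 103 in *Scnn1b*-Tg libraries, without overlap (log2 fold change 0.71, SE 0.22, adjusted p = 1, limma, exact permutation p = 0.0286). Of 81 peaks of other VEGF ligands and receptors, 58% were higher and 3 had an unadjusted p under 0.05 (3.7%). Of these 2 were higher, 1 each at *Kdr* and *Nrp2*, and 1 was lower, at the receptor gene *Kdr*, with the smallest p (log2 fold change -0.74, SE 0.30). Of 195 peaks of 24 further hypoxia-induced genes, 40.5% were higher and 3 had an unadjusted p under 0.05 (1.54%), 2 higher and 1 lower. The smallest p was at *Bnip3l*, a mitophagy receptor, where the peak was higher (log2 fold change 0.84, SE 0.28), and the lower peak belonged to *Mxi1*. *Nrp2* and *Mxi1* are named after their values were seen. The median over the 195 peaks was -0.033.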

How the data were processed

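ATACseq was performed by the authors on sorted AMs from 3 WT and 4 *Scnn1b*-Tg samples. Reads were aligned to mm10 and peaks called with the ENCODE ATACseq pipeline, and the submitters' processing notes name DiffBind, edgeR, DESeq2 and ChIPseeker. The deposited table holds 1 signal value per consensus peak and library, a read count the authors divided by a factor per library, with ChIPseeker annotation. Every value was a whole multiple of what 1 read is worth in that library (100% within 0.001 reads), so read counts could be recovered. The authors' mean concentrations, fold changes, p-values and false discovery rates in the table were not used. The 7 value columns carry genotype and a number from 1 to 4, which no label ties to a sample, so each entered as a library of its genotype. In total 0 columns of other samples were left out.

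The main test was limma 3.58.1 (R 4.3.3), its variances trended and robust, fitted to log2(value + 1) with a pseudocount of 1 over all 90376 peaks, with genotype as the only term. A call was a Benjamini-Hochberg adjusted p under 0.05. Sums per gene, and sums over peaks within 1 kb of a start, were fitted the same way. Fold changes refer to log2(value + 1) and so come out too small for weak peaks. A two-sided exact permutation test of the genotype labels (35 arrangements), added after the data were seen, gave a second p for named peaks. Named peaks were, for each gene, the start peak, the peak of smallest p, and any at an unadjusted p under 0.05 or without overlap, and, for other lists, the gene with the smallest p. Genes and lists were chosen with earlier results of these data known. Alternatives were edgeR 4.0.16, DESeq2 1.42.0, sva 3.50.0, other scalings, pseudocounts of 0.5 and 5, a minimum mean of 20, a term for or omission of the libraries that stood apart, and leaving out each library. The code was tested on simulated data.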

Additional observations from a re-analysis of the deposited data

Results flagged for a closer look

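Within the 4 *Scnn1b*-Tg libraries, 3 of 40 sets of values for the 10 genes held 1 library far from the others by Dixon's criterion, and chance alone marks about 5% of sets. At the *Hif1a* peak 27.2 kb upstream of the start, *Scnn1b*-Tg replicate 2 was the lowest at 31.7 normalized reads, with the others at 61.7 to 65.1. Without it the log2 fold change was 0.79, not past adjustment, against 0.55 with it. At the *Vegfa* peak 2.8 kb from the start, *Scnn1b*-Tg replicate 4 was the highest at 49.1, with the others at 17.0 to 21.8. In the sum over all *Slc2a1* peaks, *Scnn1b*-Tg replicate 4 was the highest at 6662 normalized reads, with the others at 5492.5 to 5667. The same library stood apart on the first principal component. WT groups of 3 were too small for this criterion.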

How the results depend on the processing

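None of the 94 peaks passed an adjusted p of 0.05 in any of 21 fits across all peaks, and none of 30 single values for the 10 genes did in 509 alternative runs, of which 473 kept direction and 36, none larger than 0.20 on the log2 scale, changed sign. Over all peaks, the count past an adjusted p was 1 in limma, 0 without the variance trend and with edgeR quasi-likelihood, 57 with the likelihood-ratio test, 47 with DESeq2, 72 with 1 surrogate variable, 19 with those libraries that stood apart as a term and 0 to 0 leaving out each library. With an absolute log2 fold change above 1 as well, these counts were 1, 0, 0, 56, 41, 50, 18 and 0 to 0. The count of the 94 at an unadjusted p under 0.05 was 1, and 2 without the trend (with the *Hif1a* peak 26.1 kb upstream), with the surrogate variable or with the term (each with a *Pfkfb3* intron 1 peak, log2 fold change -0.33 and -0.41), 0 without both libraries that stood apart, and 0 to 2 leaving out each library. Apart from 2.01% in the main fit, the shares of all peaks at that p in these fits are not given here. The *Slc2a1* intron 1 peak missed an unadjusted p of 0.05 without WT replicate 1, WT replicate 2, *Scnn1b*-Tg replicate 3 or *Scnn1b*-Tg replicate 4. Without both libraries that stood apart, the gene sums past an adjusted p went from 0 to 1 (*Gm10637*) and the sums within 1 kb from 0 to 4 (*Xlr3b*, *Aig1*, *Gm29686* and *Awat1*), named after their values were seen.

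Log2 fold changes near zero changed sign. Without both libraries that stood apart, the *Hif1a* start peak was 0.01 and its sum 0.0033. With the mean of log2 values in place of sums, *Hif1a* was 0.05, *Vegfa* -0.02, *Hk2* 0.0002 and *Pdk1* 0.20. The *Ldha* start peak was -0.0016 with median-ratio scaling and -0.0020 in DESeq2, and that of *Pdk1* 0.01 with the term. Leaving out each library, start peaks ranged from -0.21 to 0.14 (*Hif1a*), -0.02 to 0.19 (*Egln1*), -0.02 to 0.18 (*Vegfa*), -0.05 to 0.17 (*Slc2a1*), -0.08 to 0.15 (*Hk2*), -0.24 to 0.10 (*Pfkfb3*), -0.13 to 0.09 (*Ldha*) and -0.18 to 0.11 (*Pdk1*). Sums ranged from -0.05 to 0.03 (*Hif1a*), -0.01 to 0.15 (*Egln1*), -0.11 to 0.0029 (*Egln3*), -0.07 to 0.18 (*Vegfa*), -0.07 to 0.05 (*Hk2*), -0.14 to 0.02 (*Ldha*) and -0.10 to 0.05 (*Pdk1*). The causes were not tested. No paired analysis was possible because the value columns are numbered 1 to 4 and no label ties them to the numbers in the sample titles, so the replicate block was not run. The number of libraries, 3 and 4, limits how narrow the printed intervals can be.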
